A study of Mus musculus with 14 samples.

Results

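The cytosolic ribosomal protein genes encode the proteins of the large and small ribosomal subunits that work in the cytoplasm. The deposited table held 77 of them among 41739 genes, 46 for the large subunit and 31 for the small one. They were chosen by gene symbol, as protein-coding genes named Rpl or Rps with a number, the stalk genes Rplp0, Rplp1 and Rplp2, and Rpsa, and were selected on expression, with a TPM of 1 or more in at least 3 of the 14 libraries. TPM is a level per exon length, scaled to the same total in every library. All 77 genes that matched by name passed, and each was at 1 or more in all 14 libraries. Rpl24 came nearest to the limit, with 1.38 TPM in its lowest library, and no gene fell just outside it.

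Each ribosomal subunit is built on ribosomal RNA in the nucleolus and needs its proteins in fixed proportions, and in mammals nearly every such protein has 1 functional gene. Their mRNAs belong to the TOP class, which begins with a tract of pyrimidines next to the cap. Rheb is a small GTPase that activates the kinase complex mTORC1, and mTORC1 is known to raise the translation of TOP mRNAs and, through S6 kinase, to phosphorylate the ribosomal protein Rps6.

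Microglia, the resident macrophages of the brain, were isolated with magnetic beads from mice aged 8 weeks that had been given tamoxifen and then 1 intraperitoneal injection a day on 4 days. The KO groups were Rheb F/F; Tmem119-cre ER mice, in which a tamoxifen-inducible Cre driven from a microglial gene deletes the floxed Rheb alleles, and the WT groups were Rheb F/F mice without Cre, so Cre and the loss of Rheb cannot be told apart. There were 4 KO and 4 WT libraries after LPS (bacterial lipopolysaccharide, 1.0 mg/kg), and 3 KO and 3 WT libraries after PBS, the vehicle. The labels do not say whether a library was 1 animal, so p-values measure the spread between libraries, which may be partly technical.

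Rheb, the targeted gene, was at 25.5, 22.9, 23.1 and 19.5 TPM in the KO LPS libraries, against 31.8, 32.5, 33.6 and 25.1 TPM in the WT LPS libraries. It was at 16.6, 19.0 and 19.1 TPM in the KO PBS libraries, against 29.7, 32.2 and 34.5 TPM in the WT PBS libraries. The depth recovered from the values was between 7998451 (LPS KO4) and 32304000 reads (LPS WT1) per library. All 8 microglial markers were above 0, with a summed level of 12810 to 17640 TPM in KO LPS, 17190 to 20760 TPM in WT LPS, 27180 to 29040 TPM in KO PBS and 24490 to 31890 TPM in WT PBS libraries. Neutrophil markers summed to 10900 to 23670 TPM in KO LPS, 8750 to 20850 TPM in WT LPS, 4831 to 7662 TPM in KO PBS and 5359 to 22260 TPM in WT PBS libraries. Choroid plexus markers summed to 3947 to 14470 TPM in KO LPS, 2291 to 8755 TPM in WT LPS, 10850 to 25700 TPM in KO PBS and 16360 to 21450 TPM in WT PBS libraries. Monocyte markers summed to 985 to 1566 TPM in KO LPS, 933 to 1884 TPM in WT LPS, 219 to 334 TPM in KO PBS and 202 to 901 TPM in WT PBS libraries. The part of these cells in the results was not tested. The LPS KO3 and PBS WT914 libraries stood apart by pituitary transcripts, with 19670 and 78130 TPM of growth hormone (Gh) against 1.90 TPM or less in the other 12. The design text names female mice, yet the LPS libraries carried Xist at 255 to 574 TPM and the PBS libraries at 0.147 TPM or less, while Ddx3y, a Y-linked gene, was at 0.27 TPM or less in LPS libraries and at 111 to 146 TPM in PBS libraries. Tmem119, the gene that drives Cre, was at 764 to 1016 TPM in KO LPS, 1608 to 1872 TPM in WT LPS, 2002 to 2176 TPM in KO PBS and 2911 to 3766 TPM in WT PBS libraries. Treatment and sex therefore cannot be told apart here, whereas KO and WT libraries of 1 treatment matched in both transcripts.

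Transcription start windows of 7 members are shown because they span the size order of the genotype shift described below and hold the place where a TOP tract would lie. Each runs from 10 bases before the RefSeq start to 20 bases from it on (GRCm38.p6), 5′ to 3′, with the longest run of C and T in capitals.
Rpl12, chr2:32961702-32961731, plus strand: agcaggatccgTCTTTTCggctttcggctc
Rps18, chr17:33955646-33955675, minus strand: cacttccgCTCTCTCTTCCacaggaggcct
Rplp2, chr7:141447641-141447670, plus strand: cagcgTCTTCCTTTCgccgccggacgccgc
Rpsa, chr9:120127756-120127785, plus strand: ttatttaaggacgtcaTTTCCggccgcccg
Rps6, chr4:86857348-86857377, minus strand: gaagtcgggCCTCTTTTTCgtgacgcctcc
Rpl41, chr10:128549149-128549178, minus strand: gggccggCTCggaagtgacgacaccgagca
Rps2, chr17:24720053-24720082, plus strand: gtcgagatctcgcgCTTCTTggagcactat
Runs of 11, 10 and 10 pyrimidines stood at the start of Rps18, Rplp2 and Rps6, against 7 in Rpl12, 6 in Rps2, 5 in Rpsa and 3 in Rpl41. RefSeq promoters were matched for 57 of the 77 genes by symbol. A run of 8 or more was found in 23 of these 57 genes (40.4%), against 3517 of 27025 genes in the promoter table (13.0%). The letters CCGGAAG, a core that ETS-family factors bind, searched on both strands in the 300 bases from 250 before to 50 after the start, were in 24 of the 57 (42.1%) and in 2683 of 27025 genes (9.93%); the motif can share letters with a pyrimidine run. Annotated starts can lie some bases from the start in use, and a match is a description of letters only. The 23 members with a run had a median genotype shift of 0.59 on the log2 scale (mean of both treatments), as did the 34 without one. The 24 with CCGGAAG had a median of 0.56, against 0.63 in the 33 without it.

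Together the ribosomal protein genes held about 1.5 times as much of the transcriptome in KO as in WT microglia, under LPS and under PBS. Their summed level was 64270, 97960, 74780 and 79130 TPM in the KO LPS libraries, against 56150, 55140, 54340 and 41400 TPM in the WT LPS libraries. It was 57670, 58080 and 69740 TPM in the KO PBS libraries, against 39660, 41920 and 39840 TPM in the WT PBS libraries. In both treatments every KO library stood above every WT library. The ratio of group means was 1.53 under LPS and 1.53 under PBS. Without LPS KO3 and PBS WT914 it was 1.55 under LPS and 1.52 under PBS. As a share of recovered reads, which no length enters, the genes took 4.08 ± 0.79% in KO LPS and 2.64 ± 0.24% in WT LPS libraries (SD, n = 4 each), and 2.68 ± 0.29% in KO PBS and 1.81 ± 0.09% in WT PBS libraries (SD, n = 3 each). In RNA from purified cells, more RNA per cell and a larger share of cells rich in these transcripts cannot be told apart.

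**Figure D1:**
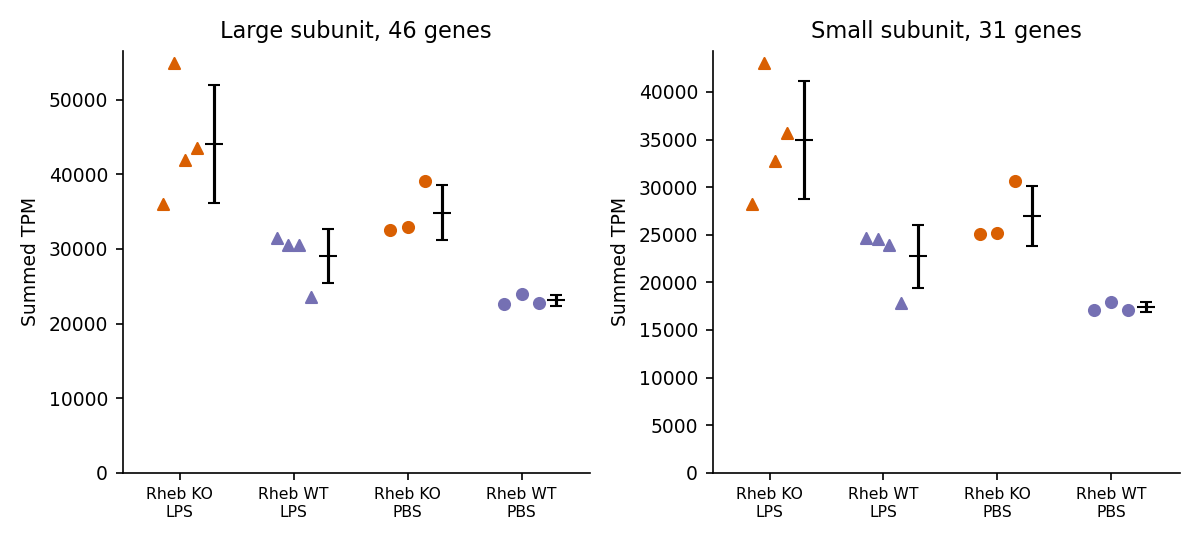
Summed TPM (y axis) of the 46 large subunit genes (left) and the 31 small subunit genes (right) in each library; points are libraries, circles PBS and triangles LPS, orange KO and purple WT, and bars give the group mean ± SD. In both panels and both treatments the KO libraries lie above the WT libraries, with large subunit sums of 36000 to 54930 TPM in KO LPS and 23600 to 31460 TPM in WT LPS.

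Both subunits showed this difference. The large subunit genes summed to 44100 ± 7912 TPM in KO LPS and 29020 ± 3638 TPM in WT LPS libraries (SD, n = 4 each), and to 34860 ± 3683 TPM in KO PBS and 23090 ± 749 TPM in WT PBS libraries (SD, n = 3 each). The small subunit genes summed to 34940 ± 6185 TPM in KO LPS and 22740 ± 3315 TPM in WT LPS libraries, and to 26960 ± 3167 TPM in KO PBS and 17390 ± 505 TPM in WT PBS libraries, with the same n. The ratio of the small to the large sum was 0.781 to 0.820 in KO LPS and 0.754 to 0.806 in WT LPS libraries, which overlapped. It was 0.764 to 0.783 in KO PBS and 0.750 to 0.756 in WT PBS libraries, which did not overlap. The median log2 fold change of KO over WT, on the log2(TPM + 1) scale, was 0.56 over large and 0.62 over small subunit genes under LPS, and 0.58 over large and 0.63 over small subunit genes under PBS. The quartiles of the 2 subunits overlapped in both treatments.

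Gene by gene, all 77 had a positive log2 fold change of KO over WT in both treatments. The median was 0.58 under LPS, beside 0.07 over all 18724 genes tested, and 0.61 under PBS, beside -0.002 over all genes. Under LPS 21 of the 77 rose (limma, Benjamini-Hochberg adjusted p under 0.05 over all genes), where 0.256% of all genes rose. Under PBS 10 rose, where 0.796% of all genes did. With the 2 treatments averaged in 1 contrast, 72 of 77 rose, where 3.03% of all genes did. The 5 that did not pass that test were Rpl24, Rpl41, Rps10, Rps2 and Rps29. Without LPS KO3 and PBS WT914, 54 rose, and the share over all genes is not given for that fit. No member fell in any of the 3 comparisons.

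The counts within 1 treatment depended on single libraries. Under LPS the count of 21 moved by over 1.5 times when any 1 library other than PBS WT914 was left out, to between 1 (without LPS KO3) and 42 (without LPS KO1). Under PBS the count of 10 moved as much when any 1 library other than LPS KO1 and LPS KO4 was left out. It was 0 without PBS KO911, KO912, KO915, WT904 or WT914, 1 without PBS WT913, 3 to 5 without LPS KO3, WT1, WT2 or WT3, 34 without LPS WT4 and 38 without LPS KO2. Without LPS KO3 and PBS WT914 together, 0 were called in either treatment (73 under LPS and 69 under PBS had an unadjusted limma p under 0.05). The number over all genes is not given for that fit. In the fit of all libraries 72 members and 2183 of all 18724 genes had such a p under LPS. Under PBS 73 members and 2935 of all genes did. The median shift stayed positive when 1 library was left out, between 0.48 and 0.68 under LPS and between 0.53 and 0.66 under PBS.

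Every KO library was above every WT library for 66 of 77 genes under LPS, where 4.22% of all genes were so ordered, and for 73 of 77 under PBS, where 14.9% were. The 4 exceptions under PBS were Rpl24, Rpl41, Rps10 and Rps2, and these were also among the 11 exceptions under LPS, with Rpl11, Rpl13a, Rpl35a, Rpl37, Rpl38, Rpl39 and Rps29. Without LPS KO3 and PBS WT914 the counts were 66 under LPS and 74 under PBS. Such a count cannot fall when libraries are left out, so this is no check of it. Of the genes that rose, 6 did so in both treatments, 28.6% of the LPS set and 60.0% of the PBS set, Rpl12, Rpl5 and Rps18 among them. Whether this overlap is unusual cannot be read, since its share over all genes is not given. Across the 77 genes the LPS and the PBS shift had a Pearson r of 0.72 and a Spearman rho of 0.66; the points share libraries within each axis, so this is a description across genes only.

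**Figure D2:**
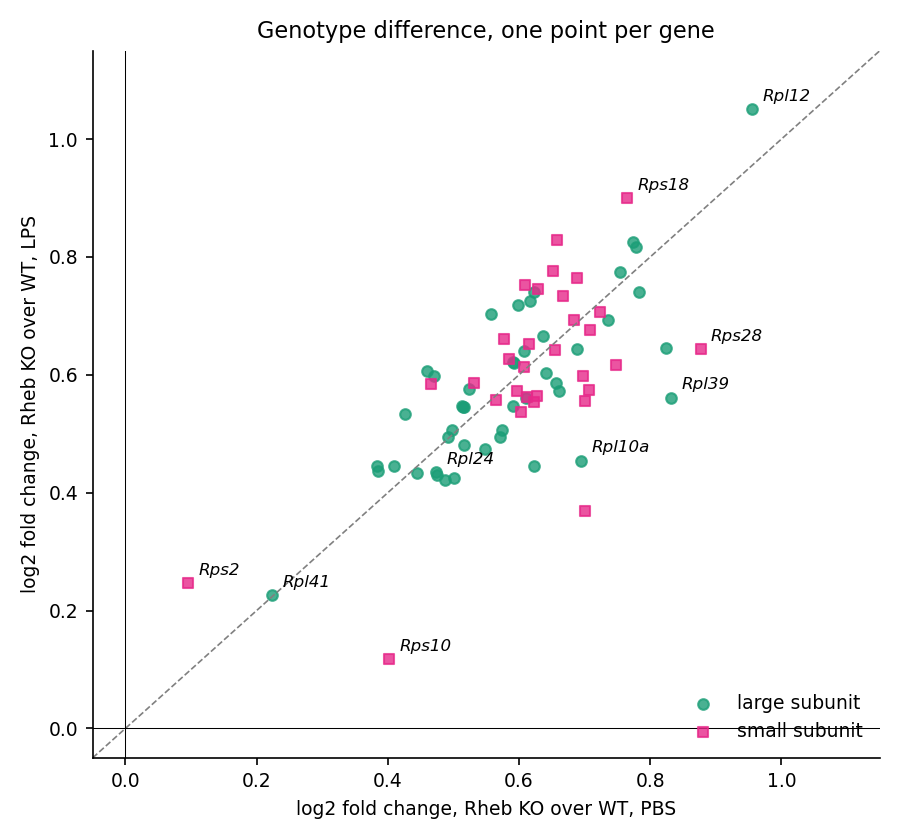
Log2 fold change of KO over WT for each of the 77 genes under PBS (x axis) and under LPS (y axis), from limma on log2(TPM + 1); green circles are large and pink squares small subunit genes, and the dashed line marks equal values. All points lie above 0 on both axes, Rpl12 at the top right (0.96 and 1.05) and Rps2, Rps10 and Rpl41 at the lower left.

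Rpl12, a large subunit protein at the base of the stalk, had the largest shift. It was at 508, 803, 587 and 659 TPM in the KO LPS libraries, against 327, 314, 336 and 247 TPM in the WT LPS libraries. It was at 434, 420 and 525 TPM in the KO PBS libraries, against 228, 246 and 233 TPM in the WT PBS libraries. KO over WT means gave 2.09 under LPS and 1.95 under PBS, with no overlap (log2 fold change 1.05 ± 0.14 SE under LPS, limma adjusted p = 0.0102, and 0.96 ± 0.16 SE under PBS, limma adjusted p = 0.0196). An exact two-sided permutation test gave p = 0.1 under PBS and, under LPS as well, the smallest p that the number of libraries allows.

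Rps18, a protein of the small subunit head, came next by the mean of both treatments. It was at 664, 1054, 790 and 892 TPM in the KO LPS libraries, against 494, 467, 488 and 361 TPM in the WT LPS libraries. It was at 502, 470 and 612 TPM in the KO PBS libraries, against 299, 323 and 304 TPM in the WT PBS libraries. The groups did not overlap in either treatment, and the shift was 0.90 ± 0.14 (SE) under LPS and 0.76 ± 0.16 (SE) under PBS, with limma adjusted p = 0.0192 and 0.0474 in that order. Other large mean shifts were those of Rpl32 (0.83 under LPS and 0.77 under PBS), Rpl17, which lines the exit tunnel (0.78 and 0.76), and Rpl36a (0.74 and 0.78). Of these, Rpl32 and Rpl17 rose under LPS, and Rpl36a passed the test in neither (limma adjusted p = 0.0639 under LPS and 0.0645 under PBS).

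By the mean of both treatments, Rps2 and Rpl41 stood at the other end. Rps2, which lies at the mRNA entry of the small subunit, was at 1053, 890, 696 and 1262 TPM in the KO LPS libraries, against 848, 723, 992 and 683 TPM in the WT LPS libraries. It was at 501, 521 and 575 TPM in the KO PBS libraries, against 544, 379 and 596 TPM in the WT PBS libraries. The groups overlapped in both treatments (log2 fold change 0.25 ± 0.19 SE under LPS and 0.10 ± 0.22 SE under PBS), and without PBS WT913 the PBS value was -0.10. Its spread between libraries of 1 group was 0.29 on the log2 scale, beside a median of 0.20 over the 77 genes.

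Rpl41, the smallest ribosomal protein, was at 724, 1097, 902 and 820 TPM in the KO LPS libraries, against 811, 778, 805 and 617 TPM in the WT LPS libraries. It was at 649, 708 and 758 TPM in the KO PBS libraries, against 567, 591 and 653 TPM in the WT PBS libraries. The groups overlapped in both treatments, with shifts of 0.23 ± 0.13 (SE) under LPS and 0.22 ± 0.15 (SE) under PBS. By the mean of both treatments the next smallest shifts were those of Rps10 (0.12 under LPS, the smallest of the 77 there, and 0.40 under PBS), Rpl8 (0.44 under LPS and 0.39 under PBS), Rpl22 (0.45 and 0.38) and Rpl7 (0.44 and 0.41), none of which passed the test within 1 treatment.

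Rps6, the S6 kinase substrate, lay in the middle of the order. It was at 1039, 1533, 1216 and 1222 TPM in the KO LPS libraries, against 875, 859, 845 and 597 TPM in the WT LPS libraries. It was at 951, 960 and 1105 TPM in the KO PBS libraries, against 652, 682 and 683 TPM in the WT PBS libraries. The groups did not overlap in either treatment, yet the adjusted p was 0.0553 under LPS and 0.101 under PBS (limma, log2 fold change 0.66 and 0.58), and it passed in the average of both treatments (0.62, limma adjusted p = 0.00659).

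**Figure D3:**
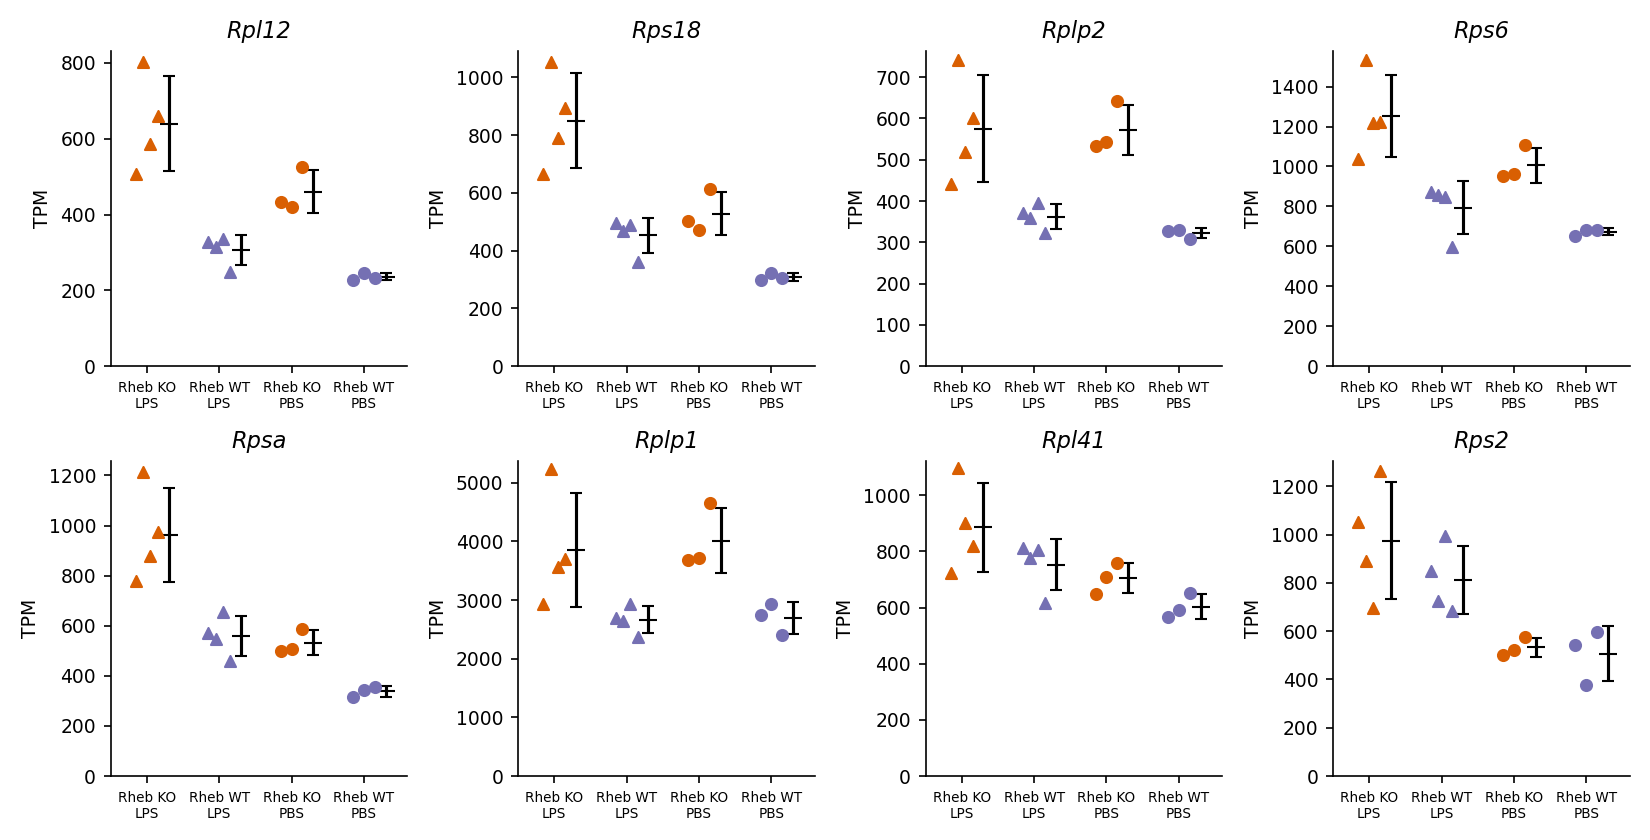
TPM (y axis, from 0) of 8 ribosomal protein genes in each library, with symbols and mean ± SD bars as in the plot of summed TPM. KO and WT libraries of a treatment are apart for Rpl12, Rps18, Rplp2, Rps6, Rpsa and Rplp1 and overlap for Rpl41 and Rps2, while Rplp1 averages 2662 TPM in WT LPS and 2690 TPM in WT PBS.

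To ask which genes left the common shift, each library was divided by its median ribosomal protein gene and the model was refitted, a comparison added after the data had been seen. Relative to that median, Rpl12 was higher in KO by 0.43 ± 0.08 (SE) under LPS and 0.42 ± 0.09 (SE) under PBS (limma adjusted p = 0.00275 and 0.0216). Rpl41 was lower, with -0.40 ± 0.08 (SE) under LPS and -0.31 ± 0.10 (SE) under PBS (limma adjusted p = 0.0044 and 0.0393). Rps18 was also higher under LPS (0.28, limma adjusted p = 0.0177) and Rps28, of the small subunit head, under PBS (0.34, limma adjusted p = 0.0458). These were all the members called, 3 of 77 in each treatment. Among all genes 36.7% were called under LPS and 21.7% under PBS on this scale. The division itself shifts the genes other than the 77, so these shares are no background for the members. With so many genes called, an adjustment over all genes is lenient and does not control the error among the 77. In the 21 other settings run, Rpl12 and Rpl41 stayed called in all 21 under LPS and in 17 and 9 under PBS. The Rps18 call under LPS held in 17 of the 21, and the Rps28 call under PBS in 6 (highest limma adjusted p = 0.12). The difference between treatments was not called for any gene on this scale (0%), Rps28 included (-0.32 ± 0.15 SE, limma adjusted p = 0.728).

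By role, the P stalk, which recruits elongation factors, comprises Rplp0, Rplp1 and Rplp2 on a base formed with Rpl12. Rplp0 was at 2095 ± 354 TPM in KO LPS and 1269 ± 171 TPM in WT LPS libraries (SD, n = 4 each), and at 1247 ± 108 TPM in KO PBS and 822 ± 42.6 TPM in WT PBS libraries (SD, n = 3 each). It rose under LPS (0.72, limma adjusted p = 0.0331) and missed the threshold under PBS (0.60, limma adjusted p = 0.0779). Rplp2 did the reverse: it was at 441, 742, 518 and 601 TPM in the KO LPS libraries, against 371, 359, 394 and 322 TPM in the WT LPS libraries, and its shift of 0.65 missed the threshold (limma adjusted p = 0.0553). It was at 533, 542 and 643 TPM in the KO PBS libraries, against 328, 330 and 307 TPM in the WT PBS libraries, and it rose there (0.82, limma adjusted p = 0.0343). Rplp1 had the highest level of all 77 genes, at 3857 ± 976 TPM in KO LPS and 2662 ± 230 TPM in WT LPS libraries, and at 4014 ± 552 TPM in KO PBS and 2690 ± 271 TPM in WT PBS libraries. Its shifts of 0.51 and 0.57 did not pass in either treatment alone. Whether these shifts differ between treatments was tested for every gene, and no member passed.

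Rpl5 and Rpl11 carry the 5S ribosomal RNA into the large subunit and bind Mdm2 when ribosome assembly fails. Rpl5 was at 546 ± 93.4 TPM in KO LPS and 348 ± 51.4 TPM in WT LPS libraries, and at 469 ± 36.0 TPM in KO PBS and 290.1 ± 5.67 TPM in WT PBS libraries, and rose in both treatments (0.64 under LPS, limma adjusted p = 0.0467, and 0.69 under PBS, limma adjusted p = 0.0474). Rpl11 had shifts of 0.43 and 0.50 that passed in neither. Of the 8 proteins at the exit tunnel, 3 rose under LPS (Rpl4, Rpl17 and Rpl23a) and 0 under PBS at a limma adjusted p under 0.05. Over all 77 genes it was 21 and 10, and over all genes 0.256% and 0.796%. In each treatment 8 of 8 had an unadjusted limma p under 0.05, beside 2183 (LPS) and 2935 (PBS) of all 18724 genes. The medians at the exit tunnel were 0.57 under LPS and 0.63 under PBS. Rps3, the other protein at the mRNA entry, was at 592 ± 102 TPM in KO LPS and 400.3 ± 54.2 TPM in WT LPS libraries, and at 489 ± 47.3 TPM in KO PBS and 329 ± 8.57 TPM in WT PBS libraries, with shifts of 0.56 and 0.57 that did not pass in a single treatment.

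Within the small subunit, the 14 head proteins had a median shift of 0.60 under LPS (4 rose) and 0.67 under PBS (4 rose), and the 17 body and platform proteins one of 0.64 under LPS (6 rose) and 0.62 under PBS (1 rose). The 18 members whose loss causes Diamond-Blackfan anaemia in humans, a failure of red cell formation, had a median of 0.56 under LPS (5 rose) and 0.63 under PBS (3 rose), close to that of all 77. For comparison, 21 of all 77 rose under LPS and 10 under PBS, beside 0.256% and 0.796% of all genes. These counts depended on single libraries, so no difference between roles or treatments is read from them. The genes lay on 19 chromosomes, with at most 14 on any 1 of them. The 4 X-linked members, Rpl10, Rpl36a, Rpl39 and Rps4x, had medians of 0.62 under LPS and 0.72 under PBS. None of the 4 passed within 1 treatment, though all 4 had an unadjusted limma p under 0.05 in each. All 4 rose in the average, as did 72 of the 77 and 3.03% of all genes. Rpl10 was at 1790 ± 285 TPM in KO LPS and 1176 ± 160 TPM in WT LPS libraries, and at 1411 ± 82.8 TPM in KO PBS and 903.6 ± 36.4 TPM in WT PBS libraries. Rps4x was at 1948 ± 355 TPM in KO LPS and 1243 ± 186 TPM in WT LPS libraries, and at 1485 ± 175 TPM in KO PBS and 938 ± 15.7 TPM in WT PBS libraries.

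Levels differed far more between genes than between groups. The mean TPM over all 14 libraries was between 5.17 and 3299, with a median of 663. After Rplp1 the highest were Rps15, Rps29 and Rps3a1, with means of 2489, 2408 and 2192 TPM. Rps15 was above Rps3a1 in every library but LPS WT2 (2007 against 2230 TPM), and the place of Rps29 changed between libraries. Libraries of 1 group varied by 0.18 to 0.31 (SD, log2) in these 3, a spread that does not compare genes within a library. Their order was not tested. The lowest were Rps10, Rpl24, Rpl13a and Rps15a, and the first 3 of these were the only members below 100 TPM on average. Rps10 was at 4.20, 6.25, 5.11 and 6.83 TPM in the KO LPS libraries, against 3.77, 4.78, 6.72 and 5.12 TPM in the WT LPS libraries, and at 6.12, 6.60 and 4.59 TPM in the KO PBS libraries, against 4.76, 3.597 and 3.94 TPM in the WT PBS libraries. Rpl24 was at 10.2, 7.74, 7.03 and 5.25 TPM in the KO LPS libraries, against 3.89, 4.77, 6.39 and 6.05 TPM in the WT LPS libraries. Its PBS values were 5.17, 9.19 and 4.01 TPM in KO, against 8.12, 1.38 and 4.42 TPM in WT.

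The 3 low genes are also those whose exons overlap other annotated genes most on the same strand. In GENCODE M21, 47.0% of the exon bases of Rpl24, 35.4% of those of Rpl13a and 20.6% of those of Rps10 lie in another gene on that strand, mainly Gm28037, Gm45713 and RPS10-NUDT3. Their values are therefore uncertain, and the part of the overlap was not tested. Counting both strands, 66.2% of the exon bases of Rpl35, 62.3% of those of Rpl23a and 26.7% of those of Rpl5 lie in other genes, with 0.0%, 2.6% and 2.4% on the same strand in that order, and whether the authors counted by strand is not given in the sources used here. Many ribosomal protein genes also have near-identical processed pseudogenes, which can take or share reads. Levels between genes further depend on the exon length used, which here counts every annotated isoform (3598 bases for Rpl12). Between groups a gene's own length nearly cancels, but the lengths of all genes enter through the total that TPM is scaled to. By TPM the LPS over PBS ratio of the members' group means was 1.28 in KO and 1.28 in WT. As a share of recovered reads it was 1.52 in KO and 1.46 in WT. Across the 77 genes the genotype shift had a Pearson r of 0.11 with exon length and of 0.10 with mean level, as a description across genes.

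Set against the PBS libraries, the LPS libraries had higher levels of most ribosomal protein genes, in a transcriptome whose median gene was lower by TPM. In KO libraries 73 of 77 and in WT libraries 75 of 77 had a positive log2 fold change of LPS over PBS. The median was 0.36 in KO, beside -0.22 over all genes, and 0.37 in WT, beside -0.28. Relative to the median of all genes this put the ribosomal protein genes 0.58 higher in KO and 0.65 higher in WT, and 0.62 and 0.70 higher after median-of-ratios scaling. In KO 32 of 77 rose, where 7.82% of all genes rose and 26.9% fell, and in WT 36 rose, where 7.95% rose and 34.1% fell. The sum of the monocyte markers, 5 of 5 above 0, was higher in every LPS library (933 TPM or more) than in any PBS library (901 TPM or less). Taken alone, Ccr2, Ly6c2 and Chil3 overlapped between LPS and PBS libraries, whereas Plac8 and Vcan did not. The part of monocytes in these values was not tested. No member fell, and 24 rose in both genotypes, which is 66.7% of the WT set and 24 of the 32 of the KO set. A share over all genes is not given for this overlap, so whether it is unusual cannot be read. The count in KO was 12 without PBS KO911, 12 without PBS KO912, 16 without LPS KO2 and 49 without LPS KO1. The count in WT was 16 to 21 without any 1 of PBS WT904, WT913 and WT914 and LPS WT1, WT2 and WT3, and 61 without LPS WT4. Gm23935, a non-coding RNA gene, took 5.003 to 7.34% of TPM in KO LPS and 4.04 to 15.4% in WT LPS libraries, against 0.248% or less in PBS libraries. Libraries were also rescaled to a total without it, the members and the mitochondrial, haemoglobin and pituitary hormone genes. The members' median was then 0.531 in KO, beside -0.074 over all genes, and 0.471 in WT, beside -0.195. The part of Gm23935 alone in these values was not tested.

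**Figure D4:**
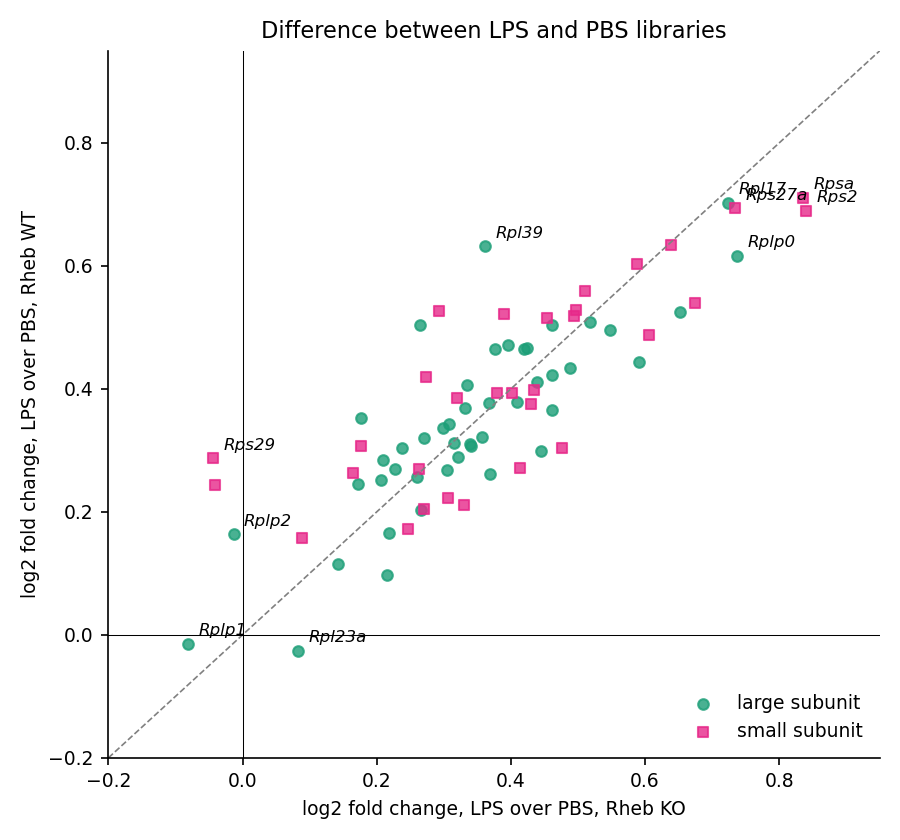
Log2 fold change of LPS over PBS libraries for each of the 77 genes in KO (x axis) and in WT (y axis), from limma on log2(TPM + 1), with symbols as in the plot of the genotype shift. Rpsa, Rps2, Rps27a, Rpl17 and Rplp0 lie at the top right, and Rplp1 and Rpl23a near 0 in both genotypes.

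Rpsa, the laminin receptor homologue of the small subunit, had one of the largest such differences. It was at 778, 1214, 878 and 975 TPM in KO LPS libraries, against 500, 509 and 588 TPM in KO PBS libraries, and at 570, 545, 657 and 461 TPM in WT LPS libraries, against 316, 342 and 357 TPM in WT PBS libraries. It rose in KO (0.84, limma adjusted p = 0.000901) and in WT (0.71, limma adjusted p = 0.00237), with no overlap. Rps2 rose as well (0.84 in KO and 0.69 in WT), as did Rps27a, which is made as a fusion with ubiquitin (0.73 and 0.69). Rplp1, by contrast, was at 2937, 5234, 3558 and 3698 TPM in KO LPS libraries, against 3679, 3713 and 4651 TPM in KO PBS libraries, and at 2702, 2642, 2932 and 2373 TPM in WT LPS libraries, against 2738, 2934 and 2399 TPM in WT PBS libraries. Its groups overlapped in both genotypes (-0.08 ± 0.18 SE in KO and -0.01 ± 0.18 SE in WT). Rpl23a, at the exit tunnel, and Rplp2 were likewise close to 0 (0.08 and -0.01 in KO, -0.03 and 0.16 in WT).

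The P stalk thus split between LPS and PBS libraries: Rplp0 rose in both genotypes (0.74 in KO and 0.62 in WT), whereas Rplp1 and Rplp2 did not pass in either. Relative to the median ribosomal protein gene of each library, Rpsa (0.40 in KO and 0.36 in WT), Rplp0 (0.30 and 0.27), Rpl17 (0.29 and 0.36) and Rps27a (0.30 and 0.35) were higher, and Rplp1 (-0.52 and -0.36), Rpl23a (-0.35 and -0.37), Rpl29 (-0.29 and -0.23) and Rpl13 (-0.22 and -0.25) lower in LPS libraries of both genotypes at a limma adjusted p under 0.05. Rpsa and Rpl23a kept these calls in all 21 other settings in both genotypes, whereas the Rpl13 call was kept in 5 in KO and 17 in WT, and the Rpl29 call in 19 in KO and 10 in WT. The calls of Rplp0, Rpl17, Rps27a and Rplp1 were each kept in 17 or more. On this scale 51.2% of all genes were called in KO and 57.8% in WT. Here too the division shifts the other genes, so these shares are no background for the members. The adjusted p over all genes is lenient for them and does not control the error among the 77. Across the 77 genes the KO and the WT difference had a Pearson r of 0.83 and a Spearman rho of 0.81.

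No difference in the genotype shift between LPS and PBS passed the test. The interaction had a median of 0.003 over the 77 genes, beside 0.05 over all genes, and limma called 0 members and 0% of all genes; 0 members had an unadjusted p under 0.05. Its standard error had a size of 0.21 for Rpl12 and 0.20 for Rpl41.

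Other proteins of the same ribosome, left out by the name rule, were measured too. Rack1, a scaffold on the small subunit head, was at 420, 610, 468 and 465 TPM in the KO LPS libraries, against 313, 300, 320 and 238 TPM in the WT LPS libraries, and at 313, 319 and 360 TPM in the KO PBS libraries, against 203, 208 and 200 TPM in the WT PBS libraries. It rose in both treatments (0.74 and 0.69, limma adjusted p = 0.0192 and 0.0389). Fau, made as a fusion with a ubiquitin-like protein, had shifts of 0.50 under LPS and 0.70 under PBS, neither of which passed in a single treatment. Of the 9 paralogs of ribosomal proteins listed, 7 were tested and 0 passed in either treatment. An unadjusted limma p under 0.05 was found for 1 under LPS and 2 under PBS, against 2183 and 2935 of all 18724 genes. Medians were 0.30 under LPS and 0.20 under PBS. Rpl22l1, the paralog of Rpl22, had the smallest p under LPS (log2 fold change 0.29) and Rpl7l1 under PBS (log2 fold change 0.19).

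Genes that build or serve the ribosome were described in the same way. For comparison, 0.256% of all 18724 genes tested rose under LPS and 0.796% under PBS. An unadjusted limma p under 0.05 was found for 2183 of all genes under LPS and 2935 under PBS. Of 27 other TOP mRNAs 1 rose under LPS, the elongation factor gene Eef1b2 (0.68), and 1 under PBS, the RNA-binding protein gene Hnrnpa1 (0.44); medians were 0.25 under LPS and 0.21 under PBS. Of 40 ribosome assembly factors 0 rose under LPS (17 at an unadjusted p under 0.05) and 3 under PBS, the nucleolar genes Gnl3 (0.74), Nop2 (0.55) and Noc2l (0.53); medians were 0.20 and 0.31. Of 8 tested RNAs that host small nucleolar RNAs in their introns, Snhg17 rose under LPS (0.56) and Snhg15 (0.99) and Snhg12 (0.66) rose under PBS; medians were 0.46 and 0.62. Among 15 genes between mTORC1 and the ribosome the median was 0.06 under LPS and 0.03 under PBS; under PBS Myc rose (1.08, limma adjusted p = 0.0196) and Rheb fell (-0.79, limma adjusted p = 0.0163), and under LPS 0 passed (2 had an unadjusted p under 0.05), Rheb included (-0.42, limma adjusted p = 0.11). Of 56 nuclear genes of oxidative phosphorylation 0 passed in either treatment (3 under LPS and 4 under PBS had an unadjusted p under 0.05), with medians of 0.05 and -0.03. The smallest p belonged to Ndufa6 under LPS (log2 fold change 0.32) and to Ndufb9 under PBS (log2 fold change -0.46).

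**Figure D5:**
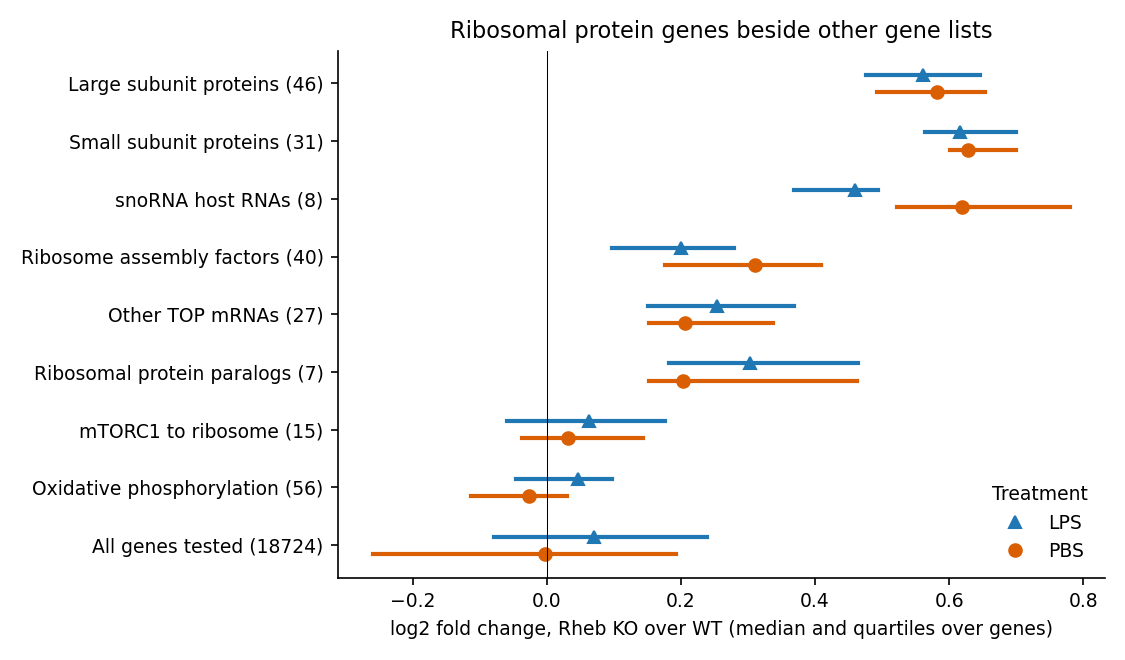
Median (symbol) and quartiles (bar) of the log2 fold change of KO over WT for lists of genes, with the number tested in brackets, under LPS (blue triangles) and PBS (orange circles). Both subunits lie near 0.6, small nucleolar RNA hosts at 0.46 and 0.62, assembly factors and other TOP mRNAs at 0.20 to 0.31, and oxidative phosphorylation and all genes near 0.

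Over the 14 libraries, the genes whose log2 level most resembled that of the median ribosomal protein gene were Eef1a1 (Pearson r 0.996), Rack1 (0.990), Eef1b2 (0.986), Nsa2 (0.961) and Fau (0.953), among 3343 genes outside the family that averaged 50 TPM or more. Eef1a1, the main elongation factor that delivers aminoacyl-tRNA, was at 7036, 9857, 7693 and 8127 TPM in the KO LPS libraries, against 5614, 5424, 5638 and 4392 TPM in the WT LPS libraries, and at 5661, 5542 and 6436 TPM in the KO PBS libraries, against 4072, 4253 and 4182 TPM in the WT PBS libraries.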

How the data were processed

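RNA-seq of 14 libraries was analysed. Per the submitters' processing notes the authors' tools include featureCounts 2.0.1, STAR 2.7.10b, cutadapt 4.4 and FastQC 0.11.9. A human build, hg38, is listed there although the gene IDs are mouse IDs, so no coordinates rest on it. The deposited values are the authors' TPM per gene. Symbols matched 41588 of 41739 IDs. TPM times GENCODE M21 exon length gave whole reads, within 0.02 reads, for over 98% of values in every library, and gave the depths stated. Genes at TPM 1 or more in 3 or more libraries (18724) were fitted with limma 3.58.1 (R 4.3.3) on log2(TPM + 1), 4 group means with an intensity trend and Benjamini-Hochberg adjustment, after a check on simulated data. The scale understates changes of low genes. Single genes were compared by exact permutation (scipy 1.17.1).

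The named genes were the 6 largest and 6 smallest genotype shifts, the 4 highest and 4 lowest levels, the 3 largest and 3 smallest LPS to PBS differences, the P stalk, 5S, mRNA entry and X-linked genes, Rps6, Rpsa, and up to 3 called genes (or that of smallest p) of each other list. Rps28, Rpl13, Rpl29 and the members listed beside short counts or exon overlaps were named after their values were seen. Some genes that this rule names are not reported here. Members and lists were chosen with earlier results of these data known. Alternatives were other pseudocounts, filters, scalings and fits, voom on recovered reads, a replicate block and leaving out each library.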

Additional observations from a re-analysis of the deposited data

Results flagged for a closer look

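In groups of 4 libraries, the gap of the highest or lowest library to its neighbour was compared with the group's range at Dixon's 95% critical value. Chance flags about 1 in 20 independent groups, but these groups share libraries and the sums contain the genes. Of 76 groups tested 9 were flagged, a number that cannot be set against that rate. LPS WT4 was the low library in 7 of them: all ribosomal protein genes summed (41400 TPM, against 54340, 55140 and 56150 TPM in the other WT LPS libraries), the large subunit sum (23600 TPM), the small subunit sum (17800 TPM), Fau (979.6 TPM), Rpl32 (728.3 TPM), Rpl41 (616.7 TPM) and Rps6 (597 TPM). In that library Gm23935 took 15.4% of TPM, against 4.04 to 5.21% in the other WT LPS libraries. Erythroid markers summed to 507.8 TPM in it, against 1.59 to 9.98 TPM in the other WT LPS libraries. The part of either in the low values was not tested. With that gene, mitochondrial, haemoglobin and pituitary hormone genes left out of the total, the ribosomal protein genes held 5.20% in LPS WT4, against 6.36, 6.23 and 6.08% in the other WT LPS libraries. The ratio of small to large subunit sums was high in LPS KO4 (0.8198, against 0.781 to 0.786 in the other KO LPS libraries), the library with the lowest depth. Rpl13a was low in LPS KO1 (22.68 TPM, against 32.0 to 33.8 TPM).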

How the results depend on the processing

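The median genotype shift over the 77 ribosomal protein genes stayed positive in every setting run, while the counts past the threshold within 1 treatment moved. Under PBS the count (10) was 2 with no filter, 2 with median-of-ratios scaling, 2 without the intensity trend, 16 after rescaling to other genes, 21 with a filter at TPM 5 and 0 without LPS KO3 and PBS WT914. Under LPS the count (21) was 2 with no filter, 4 with median-of-ratios scaling, 6 without the trend, 0 with the compared groups alone, 0 without LPS KO3 and PBS WT914, 33 with a filter at TPM 5, 60 with voom on recovered reads and 61 after rescaling. Under LPS the median of all genes moved too, from 0.07 to 0.099 with voom, 0.116 after rescaling and -0.005 with median-of-ratios scaling. The median of the members lay 0.487 to 0.522 above that of all genes in these fits. The number of all genes called in each setting is not given here. Leaving out 1 library gave member counts of 0 to 38 under PBS, 1 to 42 under LPS and 59 to 73 for the average of both (72). LPS over PBS, the count in KO (32) was 63 with median-of-ratios scaling, 60 after rescaling, 64 with voom and 19 with the compared groups alone, and 12 to 49 when 1 library was left out. In WT (36) it was 69, 55 and 65 with the same 3 scalings in that order, 23 with no filter, 17 without LPS KO3 and PBS WT914, and 16 to 61 when 1 library was left out. Median LPS differences became 0.625 (median-of-ratios) and 0.565 (voom) in KO and 0.703 (median-of-ratios) in WT. The interaction median (0.003) was -0.063 with median-of-ratios scaling and -0.100 to 0.091 when 1 library was left out, negative without PBS KO911 (-0.038), PBS KO912 (-0.028), PBS WT913 (-0.018), LPS KO2 (-0.100) and LPS WT4 (-0.094). When 1 library was left out, the PBS shift was -0.047 to 0.921 for Rpl24 and -0.100 to 0.226 for Rps2, negative without PBS WT913. The causes were not tested.

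LPS libraries of KO and WT share numbers, and the labels do not say whether the numbers pair them. Deviations of same-numbered libraries from their group means had correlations of 0.061, -0.056, -0.086 and -0.026. With 4 libraries in each group these values cannot decide it. With the replicate block 0 genes passed under LPS, with a median of 0.585. Rps10 and Rpl24 had the lowest levels of the 77, so counting error weighs most on them.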
